A study of Homo sapiens with 12 samples.

Results

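The 10 genes described here encode glycosyltransferases that build the sugar chains on which Lewis and sialyl Lewis antigens are made, or that cap or redirect them: *B3GALT5*, *B3GNT2*, *B3GNT3*, *B3GNT5*, *B4GALT1*, *B4GALT4*, *ST3GAL3*, *ST3GAL4*, *ST3GAL6* and *A4GALT*. They were chosen by symbol, and each had 1 entry in a table of 23346 genes. All 10 reached a mean of at least 0.1 RPKM (reads divided by gene length and by library size) and were among the 16236 genes tested. RNA had been sequenced from SW1990 and CFPAC-1, 2 established human pancreatic adenocarcinoma lines, each sorted by flow cytometry with the GCTM-5 antibody into positive and negative cells. The gates took the strongly positive and the negative cells. There were 4 groups of 3 samples from triplicate sorts, and all cells were grown as monolayers and stained with the same antibody, with no other treatment named. Each line is a single cell line, so a difference between the lines is a difference between 2 lines and not between kinds of tumour.

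The backbone of such a chain is made in alternating steps. A beta-3 N-acetylglucosaminyltransferase adds N-acetylglucosamine to galactose, and a galactosyltransferase then adds the next galactose. Where that galactose is joined in a beta-3 link the result is a type 1 chain, the backbone of Lewis A and Lewis B, and where it is joined in a beta-4 link the result is a type 2 chain, the backbone of Lewis X and Lewis Y. Sialic acid added in an alpha-3 link, followed by fucose, gives sialyl Lewis A from type 1 and sialyl Lewis X from type 2. Sialyl Lewis A is the carbohydrate measured in serum of patients with pancreatic cancer. The paper reports that GCTM-5 itself did not bind sialyl Lewis A above the cut-off of a glycan array. The antigen complex purified with GCTM-5 did react with an antibody to that serum marker. *B3GALT5* makes the type 1 link, *B4GALT1* and *B4GALT4* make type 2 links, *B3GNT2*, *B3GNT3* and *B3GNT5* add the N-acetylglucosamine, and *ST3GAL3*, *ST3GAL4* and *ST3GAL6* add the sialic acid. *A4GALT* adds an alpha-4-linked galactose to lactosylceramide and so takes that glycolipid into the globo series.

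Library totals, recovered from the RPKM values, ranged from 16973802 to 26159330 reads in 11 samples, and the CFPAC-1 positive sample 3 had 9969697. The first principal component of all genes tested held 69.2% of the variance and separated the lines, and the second held 11.8% and separated sorted populations. Epithelial markers were present in every group. Summed RPKM of 10 duct and epithelial genes was 1745 to 2056 in SW1990 negative and 5208 to 5533 in SW1990 positive samples, and 7414 to 8352 in CFPAC-1 negative and 7779 to 9554 in CFPAC-1 positive samples. Summed RPKM of 6 mesenchymal genes (*VIM*, *ZEB1*, *ZEB2*, *CDH2*, *FN1* and *SPARC*) was 1289.9 to 1452 in SW1990 negative, 201 to 372 in SW1990 positive, 552 to 752 in CFPAC-1 negative and 420.3 to 589 in CFPAC-1 positive samples. These sums differed between SW1990 positive and negative samples in the same contrast as each SW1990 change given here, and their part in those changes was not tested. Fibroblast genes, 8 in all, summed to 12.7 to 22.6 RPKM in SW1990 negative samples and to at most 4.88 in every other sample, with *THY1* listed at 0 in all samples. A mean of at least 1 RPKM was reached by 3 of the 8 in SW1990 negative, 2 in SW1990 positive and 1 in each CFPAC-1 population. Endothelial genes, 4 in all, summed to 14.8 to 18.8 RPKM in SW1990 negative samples and to at most 2.05 elsewhere. Leukocyte genes, 6 in all, summed to 16.2 to 49.9 RPKM in SW1990 and 163 to 228 in CFPAC-1. A mean of at least 1 RPKM was reached by 3 of the 6 in SW1990 negative and in both CFPAC-1 populations. In SW1990 positive cells 2 reached it. *CD3E* was listed at 0 in all SW1990 samples and *PTPRC* at 0 in all CFPAC-1 negative samples, and none was at 0 in all CFPAC-1 positive samples. Acinar and endocrine genes, 6 in all, summed to at most 0.160 RPKM. In such bulk samples, fewer cells making an RNA and less of that RNA per cell cannot be told apart.

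*B3GALT5*, of the type 1 link, and *B3GNT3*, of an N-acetylglucosamine step, changed in opposite directions in the lines. They rose in SW1990 positive cells and fell in CFPAC-1 positive cells. The CFPAC-1 fall of *B3GALT5* kept an adjusted p under 0.05 in all 22 alternative analyses, and that of *B3GNT3* in 13. *ST3GAL3*, whose enzyme prefers type 1 chains, was lower in positive cells of both lines. At an adjusted p under 0.05 (limma on log2 of RPKM plus 0.1, Benjamini-Hochberg over all genes tested), 5 of 10 members passed in SW1990, 4 higher and 1 lower in positive cells, where 28.2% of all genes tested passed, 11.3% higher and 16.9% lower. In CFPAC-1, 4 of 10 passed, all lower in positive cells, where 36.5% of all genes passed, 22.3% higher and 14.2% lower. The median change of the 10 genes was 0.24 in SW1990 against -0.04 for all genes, and -0.15 in CFPAC-1 against 0.05 for all genes, on the log2 scale. Samples of positive and negative cells did not overlap for 7 of 10 members in SW1990 (43.3% of all genes) and for 5 of 10 in CFPAC-1 (48.5% of all genes). The study's own limits were over 2-fold with p under 0.01, without saying whether p was adjusted. By these limits, taken with an unadjusted limma p, *B3GALT5* and *B3GNT3* passed in SW1990 (2 of 10, against 12.1% of all genes). No member passed them in CFPAC-1 (0 of 10 by limma or by voom, against 9.78% of all genes), where 4 of 10 had an unadjusted limma p under 0.05. Among all genes called in CFPAC-1 the share with a higher level in positive cells was 61.1%, and 47.8% when each sample was centred on its median. The CFPAC-1 count changed when single samples were left out. It was 1 or 2 when any sample but CFPAC-1 positive sample 3 was left out of that line, and then *B3GALT5* passed each time. In those fits the share of all genes that passed also fell, to between 26.9 and 35%.

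**Figure D1:**
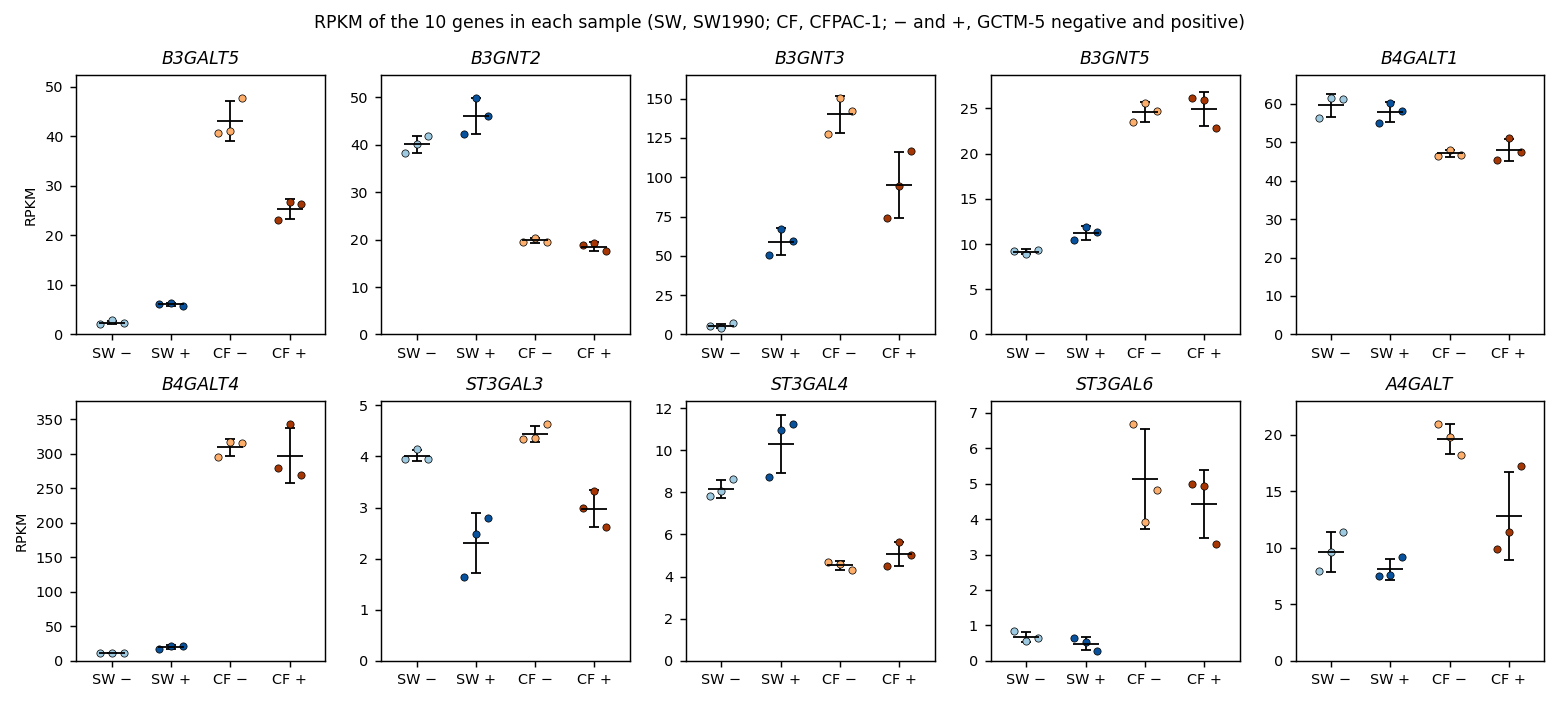
Level of each of the 10 genes in RPKM in the 12 samples, each gene on its own linear axis from 0, with points for samples and lines for the mean and SD of 3 samples. *B3GALT5*, *B3GNT3* and *B4GALT4* lie higher in CFPAC-1 than in SW1990, whereas *B4GALT1* lies between 45.3 and 61.4 RPKM in all samples.

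*B3GALT5* encodes the galactosyltransferase that makes type 1 chains (ENSG00000183778, GRCh37 chr21:40928369-41045064, plus strand). Its level was 2.16, 2.83 and 2.22 RPKM in SW1990 negative samples and 6.07, 6.31 and 5.78 RPKM in SW1990 positive samples. It was 40.5, 40.9 and 47.7 RPKM in CFPAC-1 negative samples and 23.1, 26.8 and 26.3 RPKM in CFPAC-1 positive samples. The 4 groups did not overlap, and the order from high to low was CFPAC-1 negative, CFPAC-1 positive, SW1990 positive and SW1990 negative. The SW1990 means were 2.40 ± 0.374 and 6.05 ± 0.269 RPKM (SD, n = 3), a rise of 1.31 on the log2 scale (SE 0.12, limma adjusted p = 7.26e-06), or 2.52-fold by the ratio of means. In CFPAC-1 the means were 43.1 ± 4.00 and 25.4 ± 2.03 RPKM (SD, n = 3), and *B3GALT5* fell by 0.76 on the log2 scale (SE 0.12, limma adjusted p = 0.000600), 1.70-fold by the ratio of means. Both changes stayed under an adjusted p of 0.05 in all 22 alternative analyses, with a highest adjusted p of 0.0061 in CFPAC-1. At least 138 reads lay behind each value. An antisense RNA gene on the other strand, *B3GALT5-AS1*, listed in the table as *C21orf88*, overlaps the gene. Its mean was 1.29 ± 0.124 and 1.93 ± 0.535 RPKM in SW1990 negative and positive cells and 5.20 ± 0.483 and 3.44 ± 1.75 RPKM in CFPAC-1 negative and positive cells (SD, n = 3). The use of strand in counting was not stated and overlap of exons was not examined. Whether the *B3GALT5* values hold reads of the antisense gene was not tested.

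*B3GNT3* encodes an N-acetylglucosaminyltransferase that extends core 1 O-glycans (ENSG00000179913, GRCh37 chr19:17905637-17924385, plus strand). Its level was 5.06, 4.12 and 7.07 RPKM in SW1990 negative samples and 50.3, 67.3 and 59.7 RPKM in SW1990 positive samples. It was 127, 150.2 and 142 RPKM in CFPAC-1 negative samples and 74.4, 94.3 and 117 RPKM in CFPAC-1 positive samples. SW1990 negative cells thus stood far below the other 3 groups, and no groups overlapped. In SW1990 it rose by 3.45 on the log2 scale (SE 0.20, limma adjusted p = 2.52e-07), with means of 5.42 ± 1.50 and 59.1 ± 8.53 RPKM (SD, n = 3) and a ratio of 10.9. It was the largest change of a member in either line. In CFPAC-1 it fell by 0.58 (SE 0.20, limma adjusted p = 0.0386), with means of 139.9 ± 11.7 and 95.1 ± 21.2 RPKM (SD, n = 3). That call held in 13 of 22 alternatives, with adjusted p from 0.00556 to 0.150. It was lost when CFPAC-1 negative sample 1, 2 or 3 or positive sample 1 or 2 was left out, with the change between -0.64 and -0.41, and the change was -0.74 without positive sample 3, the shallowest library. It was also lost with no filter on low values, with no trend, with CFPAC-1 fitted alone and without SW1990 positive sample 3, at adjusted p of 0.0505, 0.0597, 0.0557 and 0.0527.

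Promoter sequences are shown for *B3GALT5* and *B3GNT3* because they were the members that changed in opposite directions in the lines. The windows are from RefSeq on GRCh38.p14 (a later build than that of the gene positions given here), run from 250 bases before to 50 after an annotated start, and are on the plus strand. *B3GALT5* has 2 windows, at chr21:39612690-39612989 and chr21:39642146-39642445, and *B3GNT3* has 1, at chr19:17794888-17795187. Capitals mark matches on either strand to GGGCGG (the GC box) or TATAAA (the TATA box).
B3GALT5 window 1: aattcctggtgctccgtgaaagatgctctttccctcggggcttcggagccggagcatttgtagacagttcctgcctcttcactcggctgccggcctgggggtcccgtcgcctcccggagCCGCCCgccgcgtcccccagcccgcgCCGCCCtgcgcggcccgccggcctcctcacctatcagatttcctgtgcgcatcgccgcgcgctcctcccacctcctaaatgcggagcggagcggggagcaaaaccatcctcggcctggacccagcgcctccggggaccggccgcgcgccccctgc
B3GALT5 window 2: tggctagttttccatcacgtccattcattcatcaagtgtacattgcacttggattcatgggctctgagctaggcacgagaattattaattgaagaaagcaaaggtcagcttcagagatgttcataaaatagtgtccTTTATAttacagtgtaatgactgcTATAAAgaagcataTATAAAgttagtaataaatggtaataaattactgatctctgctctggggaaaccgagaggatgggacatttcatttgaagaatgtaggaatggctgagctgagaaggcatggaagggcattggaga
B3GNT3 window 1: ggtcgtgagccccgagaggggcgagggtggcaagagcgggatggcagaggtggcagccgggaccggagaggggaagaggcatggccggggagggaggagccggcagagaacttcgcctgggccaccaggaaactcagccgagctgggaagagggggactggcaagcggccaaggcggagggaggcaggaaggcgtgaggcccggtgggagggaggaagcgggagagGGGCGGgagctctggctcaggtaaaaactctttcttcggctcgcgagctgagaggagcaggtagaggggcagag
*B3GALT5* window 1 was 71.0% G or C and held 2 GC boxes, and window 2 was 38.7% G or C and held 3 TATAAA matches. The *B3GNT3* window was 68.3% G or C and held 1 GC box. Among 34796 windows of this length for all genes, 44.9% held GGGCGG and 11.6% held TATAAA. The letters CAGGTG (an E-box, in 20.6% of windows), AACCNGTT (a grainyhead motif, in 1.72%) and GTTAAT (part of an HNF1 motif, in 6.91%) were searched on both strands and were not in these 3 windows. Every one of the 10 members had a window in the RefSeq table. The deposited values are summed per gene, so they do not tell which start was used.

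The other chain-extending enzymes changed less. *B3GNT2* encodes the main enzyme of poly-N-acetyllactosamine extension (ENSG00000170340, GRCh37 chr2:62423250-62451866, plus strand). Its level was 38.3, 40.1 and 41.8 RPKM in SW1990 negative samples and 42.2, 49.8 and 46.0 RPKM in SW1990 positive samples. CFPAC-1 levels were 19.6, 20.4 and 19.6 RPKM in negative and 18.9, 19.2 and 17.6 RPKM in positive samples. Positive SW1990 samples all lay above negative ones and positive CFPAC-1 samples all lay below, but neither difference passed. The change was 0.20 in SW1990 (95% interval 0.02 to 0.37, limma adjusted p = 0.0950) and -0.10 in CFPAC-1 (limma adjusted p = 0.364). Without SW1990 positive sample 1 the adjusted p in SW1990 was 0.0481.

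*B3GNT5* encodes the enzyme that starts lacto-series glycolipids on lactosylceramide (ENSG00000176597, GRCh37 chr3:182971041-183016292, plus strand). It was at 9.28, 8.91 and 9.34 RPKM in SW1990 negative and 10.4, 11.9 and 11.3 RPKM in SW1990 positive samples. CFPAC-1 samples had 23.5, 25.6 and 24.7 RPKM in negative and 26.1, 25.9 and 22.8 RPKM in positive samples. The SW1990 populations did not overlap and the CFPAC-1 populations did. The SW1990 rise was 0.28 on the log2 scale (SE 0.09, limma adjusted p = 0.0286), a 1.22-fold ratio of means. It passed in 16 of 22 alternatives (adjusted p from 0.0110 to 0.101) and was lost when any SW1990 sample but positive sample 1 was left out. In CFPAC-1 the difference was 0.02 (95% interval -0.17 to 0.21, limma adjusted p = 0.897), and its sign turned when samples were scaled by their median, by quantiles or by voom.

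The type 2 galactosyltransferases behaved unlike each other. *B4GALT1* encodes the widely expressed enzyme that also forms lactose synthase in the mammary gland (ENSG00000086062, GRCh37 chr9:33104080-33167354, minus strand). It was at 56.2, 61.4 and 61.3 RPKM in SW1990 negative and 55.1, 60.2 and 58.1 RPKM in SW1990 positive samples. The CFPAC-1 values were 46.4, 48.0 and 46.8 RPKM in negative and 45.3, 51.0 and 47.3 RPKM in positive samples. The sorted populations overlapped in both lines. The difference was -0.04 in SW1990 (95% interval -0.21 to 0.12, limma adjusted p = 0.710) and 0.02 in CFPAC-1 (95% interval -0.14 to 0.19, limma adjusted p = 0.837), with signs that turned on centring by the median.

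*B4GALT4* encodes a type 2 galactosyltransferase known for work on glycolipids and sulphated chains (ENSG00000121578, GRCh37 chr3:118930579-118959793, minus strand). It was at 11.3, 11.4 and 11.5 RPKM in SW1990 negative and 17.4, 21.7 and 21.0 RPKM in SW1990 positive samples. In CFPAC-1 it was at 296, 317 and 316 RPKM in negative and 279, 343 and 269.8 RPKM in positive samples, above 99.3% of all genes tested in both populations. The lines lay far apart, and sorted populations overlapped in CFPAC-1 only. In SW1990 *B4GALT4* rose by 0.80 on the log2 scale (SE 0.11, limma adjusted p = 0.000127), with means of 11.4 ± 0.117 and 20.1 ± 2.30 RPKM (SD, n = 3), a ratio of 1.76. That call held in all 22 alternatives. In CFPAC-1 the difference was -0.07 (95% interval -0.30 to 0.16, limma adjusted p = 0.660).

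**Figure D2:**
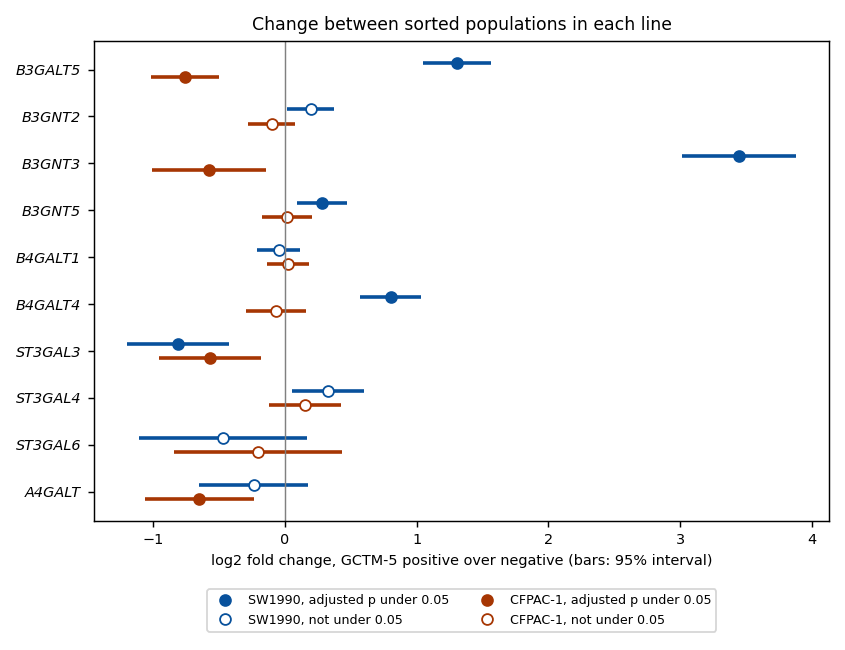
Change in GCTM-5 positive over negative cells of each of the 10 genes, on the log2 scale, for SW1990 and CFPAC-1, with 95% intervals from limma and filled points where the adjusted p was under 0.05. *B3GALT5* and *B3GNT3* lie on opposite sides of 0 in the lines, and *ST3GAL3* lies below 0 in both.

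Because RPKM is per length, the galactosyltransferase RNAs can be set against each other within a sample. *B3GALT5* made up 3.10, 3.75 and 2.96% of the summed RPKM of *B3GALT5*, *B4GALT1* and *B4GALT4* in SW1990 negative samples and 7.72, 7.16 and 6.80% in SW1990 positive samples. In CFPAC-1 it made up 10.6, 10.1 and 11.6% in negative and 6.64, 6.37 and 7.66% in positive samples. The share was thus higher in every SW1990 positive sample than in every SW1990 negative one, and lower in every CFPAC-1 positive sample than in every CFPAC-1 negative one. An exact permutation test of 3 against 3 samples cannot go below p = 0.1, so none is given. The means were 3.27 ± 0.420 and 7.23 ± 0.464% in SW1990 and 10.8 ± 0.770 and 6.89 ± 0.676% in CFPAC-1 (negative then positive, SD, n = 3), and the 2 positive populations overlapped. With *B4GALT2*, *B4GALT3*, *B4GALT5* and *B4GALT6* also in the sum, and *B4GALT7* still left out, the mean shares were 1.25, 2.53, 7.47 and 4.95%, so that the CFPAC-1 positive cells then lay above the SW1990 positive cells. The ratio of *B4GALT4* to *B4GALT1* was 0.191 ± 0.00817 in SW1990 negative, 0.346 ± 0.0261 in SW1990 positive, 6.58 ± 0.194 in CFPAC-1 negative and 6.19 ± 0.511 in CFPAC-1 positive cells (SD, n = 3). *B4GALT1* was thus the more abundant of this pair in SW1990, and *B4GALT4* in CFPAC-1. The ratio of *B3GALT5* to *B3GNT3* was 0.476 ± 0.192 and 0.104 ± 0.0147 in SW1990 negative and positive cells and 0.309 ± 0.0325 and 0.273 ± 0.0435 in CFPAC-1 negative and positive cells (SD, n = 3). These are levels of RNA, and enzyme activity was not measured.

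**Figure D3:**
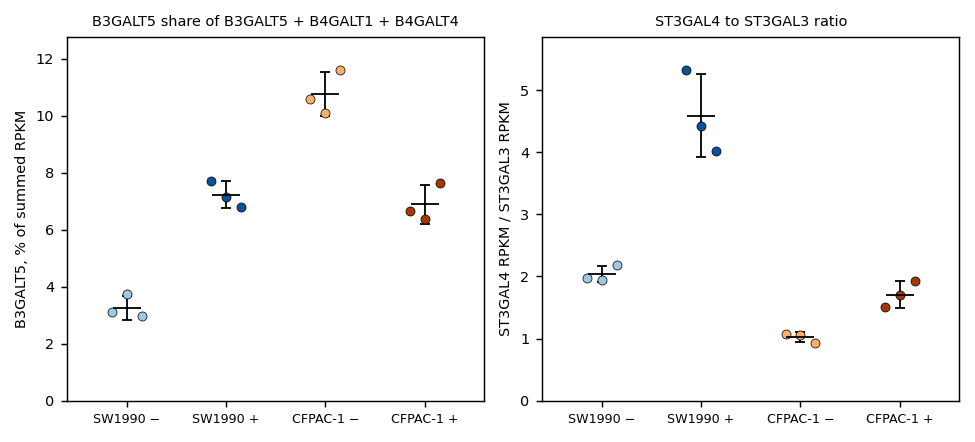
Left, *B3GALT5* as a percentage of the summed RPKM of *B3GALT5*, *B4GALT1* and *B4GALT4* in each sample, and right, the ratio of *ST3GAL4* to *ST3GAL3* RPKM, with lines for the mean and SD of 3 samples. The *B3GALT5* share goes from a mean of 3.27 to 7.23% in SW1990 and from 10.8 to 6.89% in CFPAC-1, and the ratio is higher in positive cells of both lines.

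Among sialyltransferases, *ST3GAL3* was lower in positive cells of both lines. It encodes the enzyme that prefers type 1 chains as acceptor (ENSG00000126091, GRCh37 chr1:44171495-44396837, plus strand). Its level was 3.95, 4.14 and 3.95 RPKM in SW1990 negative and 1.64, 2.48 and 2.79 RPKM in SW1990 positive samples. In CFPAC-1 it was 4.34, 4.37 and 4.63 RPKM in negative and 3.00, 3.33 and 2.62 RPKM in positive samples. Every positive sample lay below every negative one in its line. It fell by 0.81 on the log2 scale in SW1990 (SE 0.18, limma adjusted p = 0.00472), 1.74-fold by the ratio of means. It fell by 0.57 in CFPAC-1 (SE 0.18, limma adjusted p = 0.0264), 1.49-fold by the ratio of means. The falls differed by -0.24 between the lines (95% interval -0.79 to 0.31, limma adjusted p = 0.518), an interval that holds a difference of either sign. The SW1990 call held in all 22 alternatives, and the CFPAC-1 call in 17 of 22 (adjusted p from 0.00591 to 0.0809), being lost without CFPAC-1 negative sample 1, 2 or 3 or positive sample 1 or 3. Values rested on 64 to 236 reads.

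*ST3GAL4* encodes a sialyltransferase that prefers type 2 chains (ENSG00000110080, GRCh37 chr11:126225535-126310239, plus strand). It was at 7.80, 8.05 and 8.64 RPKM in SW1990 negative and 8.74, 11.0 and 11.2 RPKM in SW1990 positive samples. CFPAC-1 values were 4.70, 4.60 and 4.30 RPKM in negative and 4.50, 5.66 and 5.04 RPKM in positive samples. Populations did not overlap in SW1990 and did in CFPAC-1. The difference was 0.32 in SW1990 (95% interval 0.05 to 0.60, limma adjusted p = 0.0743) and 0.15 in CFPAC-1 (limma adjusted p = 0.367), and without SW1990 positive sample 1 the adjusted p in SW1990 was 0.0249. The ratio of *ST3GAL4* to *ST3GAL3* RPKM was 2.04 ± 0.133 in SW1990 negative, 4.59 ± 0.665 in SW1990 positive, 1.02 ± 0.0812 in CFPAC-1 negative and 1.71 ± 0.212 in CFPAC-1 positive cells (SD, n = 3). Every positive sample had a higher ratio than every negative one of its line.

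*ST3GAL6* encodes a sialyltransferase that also acts on type 2 chains (ENSG00000064225, GRCh37 chr3:98451080-98540045, plus strand). It was at 0.837, 0.554 and 0.648 RPKM in SW1990 negative and 0.640, 0.535 and 0.270 RPKM in SW1990 positive samples, on 10 to 36 reads. Levels in CFPAC-1 were 6.67, 3.91 and 4.82 RPKM in negative and 5.00, 4.94 and 3.31 RPKM in positive samples. The sorted populations overlapped in both lines. The difference was -0.47 in SW1990 (SE 0.29, limma adjusted p = 0.272) and -0.20 in CFPAC-1 (limma adjusted p = 0.624), so a change was not detectable in these samples. *DCBLD2* on the other strand overlaps the span of the gene. Its mean was 240 ± 2.49 and 240 ± 14.6 RPKM in SW1990 negative and positive cells (SD, n = 3). In CFPAC-1 negative and positive cells it was 165 ± 2.84 and 304 ± 34.1 RPKM (SD, n = 3). Overlap of exons was not examined, and the part of *DCBLD2* reads in the *ST3GAL6* values was not tested.

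*A4GALT*, the gene of the globo-series galactosyltransferase (ENSG00000128274, GRCh37 chr22:43088127-43117304, minus strand), was lower in CFPAC-1 positive cells. It was at 7.91, 9.61 and 11.4 RPKM in SW1990 negative and 7.54, 7.60 and 9.17 RPKM in SW1990 positive samples. CFPAC-1 cells had 20.9, 19.8 and 18.2 RPKM in negative and 9.89, 11.4 and 17.2 RPKM in positive samples. The populations overlapped in SW1990 and not in CFPAC-1, where positive sample 3 came close to the negative samples. The change was -0.24 in SW1990 (SE 0.19, limma adjusted p = 0.402). In CFPAC-1 it fell by 0.65 on the log2 scale (SE 0.19, limma adjusted p = 0.0193), 1.53-fold by the ratio of means. That call held in 17 of 22 alternatives (adjusted p from 0.00144 to 0.0807), being lost when CFPAC-1 was fitted alone and without CFPAC-1 negative sample 1 or 2 or positive sample 1 or 2. The gene overlaps *CYB5R3* on the same strand, whose mean was 94.8 ± 7.47 and 73.8 ± 1.70 RPKM in SW1990 negative and positive cells and 65.9 ± 4.81 and 50.5 ± 3.11 RPKM in CFPAC-1 negative and positive cells (SD, n = 3). Its part in the *A4GALT* values was not tested.

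Whether the change with GCTM-5 differed between lines was tested as an interaction. *B3GALT5*, *B3GNT3* and *B4GALT4* passed (3 of 10 members, against 26.9% of all genes tested, 9.16% positive and 17.8% negative), and all were positive, the SW1990 change being the higher. The SW1990 change minus the CFPAC-1 change was 2.07 for *B3GALT5* (95% interval 1.70 to 2.43, limma adjusted p = 9.74e-06). It was 4.03 for *B3GNT3* (95% interval 3.42 to 4.63, limma adjusted p = 5.25e-06) and 0.87 for *B4GALT4* (95% interval 0.54 to 1.20, limma adjusted p = 0.00129). All of the 21 alternatives kept these 3 calls. The median over all genes was -0.15 in this contrast and 0.00 when samples were centred on their median, and of calls over all genes 34.0% were positive before and 50.0% after that centring. Under that centring *B3GNT2* and *B3GNT5* passed too (5 of 10), with adjusted p of 0.0233 and 0.0352. The count was 4 with quantile normalization, without SW1990 positive sample 1 and without CFPAC-1 positive sample 3. *A4GALT* passed in 1 of the 21 alternatives, at a limma adjusted p of 0.0345. Over the alternatives, adjusted p for *B3GNT5* ranged from 0.0352 to 0.258. A fall in CFPAC-1 together with a rise in SW1990, the pattern of *B3GALT5* and *B3GNT3*, was called for 1.34% of all genes tested (218 genes), calls in opposite directions of either kind for 3.38%, and a call in the same direction in both lines, the pattern of *ST3GAL3*, for 8.88%.

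More members differed between the lines than between sorted populations, as was also so for all genes tested. Among GCTM-5 negative cells 9 of 10 members differed between the lines at an adjusted p under 0.05, 3 higher and 6 lower in SW1990, where 68.9% of all genes tested passed, 40.7% higher and 28.2% lower. Among GCTM-5 positive cells 9 of 10 passed, again 3 higher and 6 lower, where 62.3% of all genes passed, 32.9% higher and 29.3% lower. These line comparisons use the same 12 samples as the sorted comparisons. The exception was *ST3GAL3*, at -0.14 in negative cells (95% interval -0.53 to 0.24, limma adjusted p = 0.487) and -0.39 in positive cells (limma adjusted p = 0.0773). *B3GALT5* was 17.9-fold lower in SW1990 than in CFPAC-1 in negative cells (limma adjusted p = 9.56e-11) and 4.19-fold lower in positive cells (limma adjusted p = 3.74e-08), by ratios of means. *B3GNT3* was 25.8-fold lower in negative cells (limma adjusted p = 1.83e-09) and 1.61-fold lower in positive cells (limma adjusted p = 0.0106). *B4GALT4* was 27.2-fold lower in negative cells (limma adjusted p = 1.18e-11) and 14.8-fold lower in positive cells (limma adjusted p = 7.04e-11). The type 1 galactosyltransferase RNA and both of these others were thus more abundant in CFPAC-1, whichever population was compared.

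The remaining members split by line. *ST3GAL6* was 7.55-fold lower in SW1990 in negative cells (limma adjusted p = 4.49e-06) and 9.17-fold lower in positive cells (limma adjusted p = 3.06e-06), and *B3GNT5* was 2.68-fold and 2.23-fold lower (limma adjusted p = 3.95e-08 and 3.58e-07). *A4GALT* was 2.04-fold lower in SW1990 negative cells (limma adjusted p = 0.000390) and 1.58-fold lower in positive cells (limma adjusted p = 0.0131). Genes higher in SW1990 were *B3GNT2*, by 2.02-fold and 2.48-fold (limma adjusted p = 3.72e-07 and 6.55e-08), and *ST3GAL4*, by 1.80-fold and 2.03-fold (limma adjusted p = 7.87e-05 and 2.28e-05). *B4GALT1* was higher by 1.27-fold and 1.21-fold (limma adjusted p = 0.00141 and 0.00713), the smallest of these differences. It was lost among negative cells on median centring (adjusted p = 0.157) and in both populations by voom (adjusted p = 0.0904 and 0.0703).

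**Figure D4:**
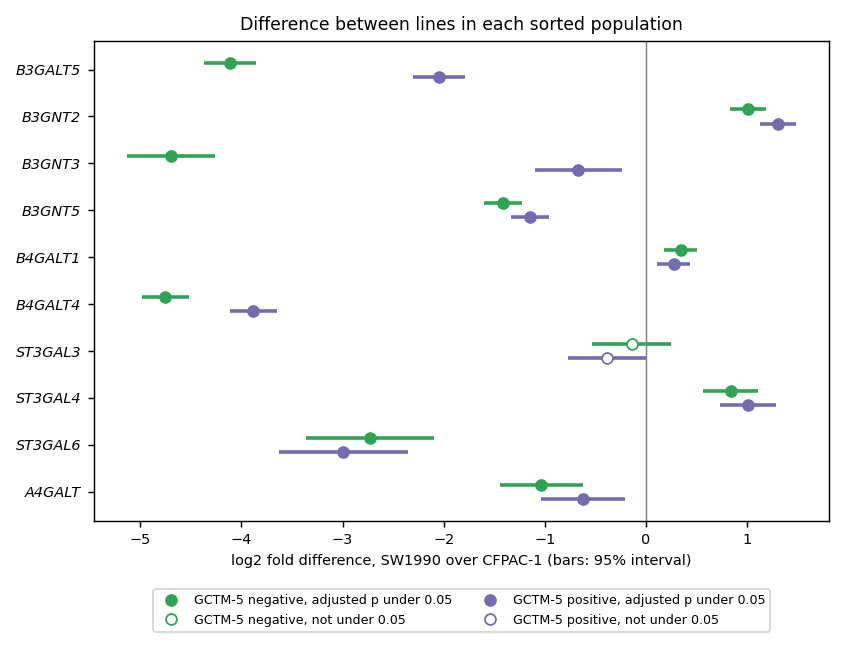
Difference between SW1990 and CFPAC-1 in each of the 10 genes, on the log2 scale, within GCTM-5 negative and within GCTM-5 positive cells, with 95% intervals from limma and filled points where the adjusted p was under 0.05. *B3GALT5*, *B3GNT3* and *B4GALT4* lie at -4.11, -4.70 and -4.75 in negative cells, and *B3GNT2*, *B4GALT1* and *ST3GAL4* lie above 0 in both populations.

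Over all 12 samples, the genes whose log2 levels followed *B3GALT5* most closely among 13267 genes with a mean of at least 1 RPKM were *C1orf198* (Pearson r = 0.995), *TMEM87A* (0.995), *TES* (0.993), *ABHD2* (0.992) and *RAMP1* (0.992). The samples form 4 groups, and the same libraries give both values of each pair. *RAMP1*, which encodes a receptor activity-modifying protein, had means of 3.45 and 11.0 RPKM in SW1990 negative and positive cells and 97.9 and 44.8 RPKM in CFPAC-1 negative and positive cells. Each of these 5 genes had its group means in the order of those of *B3GALT5*. They were chosen by correlation over the same samples, so this order adds no separate evidence.

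The rest of the pathway was read from lists of related genes, whose counts stand against the shares of all genes tested, 11.3% higher and 16.9% lower in SW1990 positive cells and 22.3% higher and 14.2% lower in CFPAC-1 positive cells. Of 8 fucosyltransferases, 5 were tested and 4 were higher in positive cells of each line. The CFPAC-1 count ranged from 2 to 4 over the alternatives, with 2 when CFPAC-1 negative sample 3 was left out. *FUT3*, the Lewis gene, had means of 1.13 ± 0.616 and 29.3 ± 8.30 RPKM in SW1990 negative and positive cells and 0.457 ± 0.0820 and 4.46 ± 1.12 RPKM in CFPAC-1 (SD, n = 3), and rose by 4.67 and 3.01 on the log2 scale (limma adjusted p = 1.98e-06 and 0.000121). It thus rose in both lines, where *B3GALT5* rose in SW1990 and fell in CFPAC-1. *FUT6* also rose in both lines, by 2.60 in SW1990 and 0.83 in CFPAC-1 (limma adjusted p = 6.63e-06 and 0.0158). SW1990 negative samples held 0 to 2 *FUT6* reads each, and the CFPAC-1 call held in 18 of 21 alternatives. *FUT2*, the secretor gene, rose by 2.44 in SW1990 (limma adjusted p = 3.99e-06) and differed by 0.11 in CFPAC-1 (limma adjusted p = 0.714). *FUT4*, whose enzyme fucosylates type 2 chains, rose by 0.93 in CFPAC-1 (limma adjusted p = 0.000591) and differed by 0.23 in SW1990 (limma adjusted p = 0.276).

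Of 11 other beta-3 and beta-4 galactosyltransferase genes, 9 were tested. In SW1990 1 was higher in positive cells, *B4GALT3* (0.51, limma adjusted p = 0.00226), and 2 were lower, *B4GALT6*, a lactosylceramide synthase (-0.95, limma adjusted p = 0.000404) and *C1GALT1C1*, the chaperone of the core 1 enzyme (-0.58, limma adjusted p = 0.00746). In CFPAC-1 *B3GALT6*, of the proteoglycan linker, alone of the list passed (0.63, limma adjusted p = 0.0376), in 12 of 22 alternatives. Over the alternatives the counts of this list were 1 to 2 higher and 1 to 3 lower in SW1990, and 0 to 1 higher and 0 to 3 lower in CFPAC-1, where leaving out positive sample 3 gave 3 lower. All 10 other N-acetylglucosaminyltransferase genes were tested, and 3 were higher and 2 lower in SW1990 positive cells, against 3 and 0 for CFPAC-1. The CFPAC-1 count ranged from 1 to 3, with 1 without CFPAC-1 negative sample 1, and the SW1990 count of lower genes from 1 to 3. *B3GNT7*, an extension enzyme of sulphated chains, went from 6.13 ± 1.67 to 18.0 ± 4.64 RPKM in SW1990 (SD, n = 3), a rise of 1.53 (limma adjusted p = 0.000136). In CFPAC-1 it was at 49.7 ± 1.64 and 41.5 ± 4.92 RPKM (limma adjusted p = 0.334), and the changes differed by 1.80 between lines (limma adjusted p = 0.000830). *B3GNT4* rose in both lines, by 0.96 and 0.95 (limma adjusted p = 0.00174 and 0.00187).

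Of 14 other sialyltransferase genes 11 were tested, and 3 were higher and 5 lower in SW1990 positive cells, against 2 and 3 for CFPAC-1. The 3 lower in CFPAC-1 became 0 to 4 over the alternatives, with 1 without CFPAC-1 negative sample 1 and 0 without negative sample 2, positive sample 1 or positive sample 3. *ST6GAL1*, whose enzyme caps type 2 chains with alpha-6-linked sialic acid, had means of 3.41 ± 0.389 and 0.459 ± 0.136 RPKM in SW1990 negative and positive cells (SD, n = 3) and fell by 2.67 on the log2 scale (limma adjusted p = 2.07e-05). In CFPAC-1 its difference was -0.12 (limma adjusted p = 0.776), and the lines differed (limma adjusted p = 0.000669). *ST6GALNAC1*, the sialyl-Tn synthase gene, rose by 1.72 in SW1990 (limma adjusted p = 0.000127) and differed by 0.22 in CFPAC-1 (limma adjusted p = 0.474). Of 8 genes for enzymes of competing chains, 6 were tested, with 1 higher and 1 lower in SW1990 and 1 passing in CFPAC-1, also higher. Over the alternatives the lower count was 0 to 1 in each line and the higher count in CFPAC-1 was 1 to 2. *B4GALNT3*, which adds N-acetylgalactosamine in place of galactose, rose by 2.37 in SW1990 (limma adjusted p = 0.000166) and differed by -0.85 in CFPAC-1 (limma adjusted p = 0.0584). *B3GALNT1*, the globoside synthase gene one step after *A4GALT*, rose by 1.16 in CFPAC-1 (limma adjusted p = 0.000147), where *A4GALT* fell, and differed by -0.13 in SW1990 (limma adjusted p = 0.572).

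Sugar donor genes, all 14 tested, were higher in SW1990 positive cells in 7 cases and lower in 0, against 4 and 2 for CFPAC-1, where these counts lie near the shares of all genes. Over the alternatives 4 to 8 were higher in SW1990, with 4 without SW1990 negative sample 3 or positive sample 3. In CFPAC-1 the range was 1 to 5 higher, with 2 without CFPAC-1 negative sample 2, and 1 to 4 lower, and centring on the median gave 2 higher and 4 lower. *SLC35A1*, the transporter that brings CMP-sialic acid into the Golgi, had means of 12.5 ± 0.991 and 20.7 ± 0.172 RPKM in SW1990 and 7.29 ± 0.169 and 5.31 ± 0.290 RPKM in CFPAC-1 (negative then positive, SD, n = 3). It rose by 0.73 in SW1990 (limma adjusted p = 7.5e-05) and fell by 0.45 in CFPAC-1 (limma adjusted p = 0.00248), the pattern of *B3GALT5* and *B3GNT3*, and the changes differed by 1.18 (limma adjusted p = 6.24e-05). *SLC35A2*, the UDP-galactose transporter, rose by 0.60 in SW1990 (limma adjusted p = 0.000508) and differed by -0.16 in CFPAC-1 (limma adjusted p = 0.208). *SLC35A3*, a UDP-N-acetylglucosamine transporter, rose by 0.58 in SW1990 (limma adjusted p = 0.0152) and differed by -0.38 in CFPAC-1 (limma adjusted p = 0.0791). *NANS*, the sialic acid synthase gene, rose by 0.58 in CFPAC-1 (limma adjusted p = 0.000384) and differed by 0.03 in SW1990 (limma adjusted p = 0.819). *TSTA3*, which makes GDP-fucose, rose in both lines, by 0.49 and 0.51 (limma adjusted p = 0.0191 and 0.0130). Of 4 sialidase genes 3 were tested and 0 passed in either line by limma, with 0 in SW1990 and 2 in CFPAC-1 at an unadjusted p under 0.05, and by voom 0 and 1 passed.

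**Figure D5:**
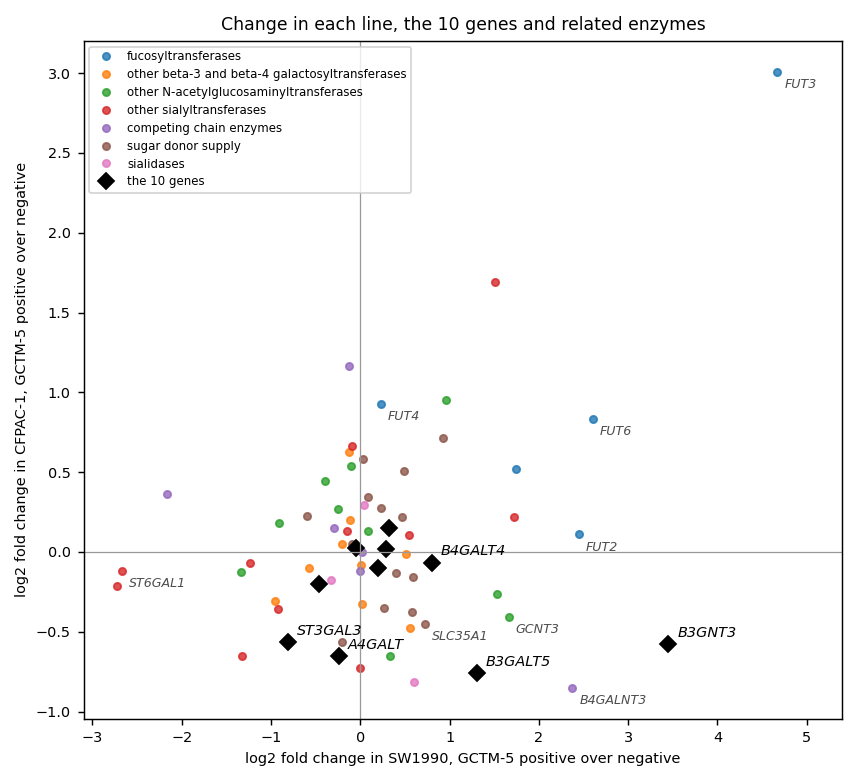
Change in GCTM-5 positive over negative cells on the log2 scale in SW1990 (horizontal) and CFPAC-1 (vertical), for the 10 members and the tested genes of the related lists, each point 1 gene. *FUT3* lies at 4.67 and 3.01, whereas *B3GNT3* lies at 3.45 and -0.58.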

How the data were processed

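RNA sequencing values of 12 samples from triplicate sorts of 2 cell lines were used. The authors aligned reads to hg19/GRCh37 and deposited RPKM values made with QuasR, by library size and gene length, with bcl2fastq named in the submitters' processing notes. Versions, annotation and use of strand in counting are not given in the sources used here. Genes with a mean of at least 0.1 RPKM were fitted on log2(RPKM + 0.1) with limma 3.58.1 in R 4.3.3 (4 group means, eBayes with trend, 2-sided, Benjamini-Hochberg over all genes tested, call at adjusted p under 0.05). Changes are on that scale, which understates those of low genes, and p-values measure the spread between these samples. TCC, which the paper names, was not used. Library totals and reads were recovered from the RPKM steps, with single-exon gene lengths of GENCODE 44 on GRCh37. All 19654 genes above 0 gave whole reads (within 0.01 read), so the count-based voom fit with TMM scaling was run on them, and on simulated data 12 of 12 totals were exact. Read numbers cover counting error only. Fits were tested on simulated data. Members, lists and alternatives were chosen with earlier results of these data known. Named genes are the members, genes from the up to 3 of each list with the largest called change in each line, and the 5 most like *B3GALT5*. *GCNT1*, *GCNT2*, *GCNT3*, *B3GNT8*, *ST6GALNAC3*, *ST6GALNAC4*, *ST6GALNAC5*, *ST8SIA6*, *B4GALNT1* and *SLC35C1* also met the rule for lists and are not described. Alternatives were pseudocounts of 1 and 0.01, no filter or a mean of at least 1 RPKM, median centring, quantile normalization, no trend, voom, only the groups compared, a replicate block, *B4GALT1* to *B4GALT6* in the type 1 share, and each sample left out. Python 3.11.15 with pandas 2.3.3, numpy 2.4.6 and matplotlib 3.10.9 was used.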

Additional observations from a re-analysis of the deposited data

Results flagged for a closer look

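The change with GCTM-5 differed between the lines for 3 of the 10 genes by the interaction test, against 26.9% of all genes tested. The SW1990 change minus the CFPAC-1 change was 2.07 for *B3GALT5* (log2 scale, limma adjusted p = 9.74e-06), and all 3 positive samples lay above the negative ones in SW1990 and below them in CFPAC-1. It was 4.03 for *B3GNT3* (limma adjusted p = 5.25e-06), with the same arrangement of samples in each line. It was 0.87 for *B4GALT4* (limma adjusted p = 0.00129), where the populations overlapped in CFPAC-1. The fall of *B3GNT3* in CFPAC-1 was called in 13 of 22 alternatives. No explanation was tested.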

How the results depend on the processing

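Ranges are given beside some counts of the related gene lists. Other counts moved as well. In SW1990, 3 to 4 fucosyltransferases, 2 to 3 other N-acetylglucosaminyltransferases and 2 to 3 other sialyltransferases were higher. There 4 to 5 other sialyltransferases, 0 to 1 sugar donor genes and 0 to 1 sialidases were lower. In CFPAC-1, 0 to 1 fucosyltransferases were lower. With 2 exceptions, the counts of called members stayed within 1.5 times their values. In CFPAC-1 the count of 4 became 2 with only the groups compared in the fit and ranged from 1 to 4 when single samples were left out, and the interaction count of 3 became 5 on median centring; the cause was not tested. With *B4GALT1* to *B4GALT6*, and not *B4GALT7*, in the denominator the *B3GALT5* shares were 1.25% in SW1990 negative, 2.53% in SW1990 positive, 7.47% in CFPAC-1 negative and 4.95% in CFPAC-1 positive cells, as the larger sum requires. Signs turned only for differences that were not called. *B4GALT1* in SW1990 was 0.0038 on median centring. *B3GNT5* in CFPAC-1 was -0.081 on median centring, -0.066 with quantile normalization and -0.047 by voom, and ranged from -0.016 to 0.082 when single samples were left out, below 0 without CFPAC-1 negative sample 1, positive sample 1 or positive sample 2. *B4GALT1* in CFPAC-1 was -0.076 on median centring, -0.094 with quantile normalization and -0.048 by voom, and ranged from -0.022 without positive sample 2 to 0.062 when single samples were left out. The interaction of *B4GALT1* was 0.080 on median centring and 0.019 by voom, that of *ST3GAL3* was 0.0049 with quantile normalization, and that of *ST3GAL6* was 0.093 with quantile normalization and ranged from -0.47 to 0.033, the last without SW1990 positive sample 3, when single samples were left out. Over the values of members, 1037 kept direction and side of the threshold, 28 lost a call, 9 gained one and 16 turned sign. Deviations of same-numbered positive and negative samples had r from 0.058 to 0.33 in SW1990 and from -0.074 to -0.003 in CFPAC-1. For unlike-numbered samples r was from -0.42 to 0.26 in SW1990 and from -0.051 to 0.076 in CFPAC-1. The study names no pairs, and numbers were not taken as pairs in the main fit. With a replicate block 4 members were called in SW1990, since *B3GNT5* had an adjusted p of 0.0632, 4 in CFPAC-1 and 3 in the interaction, and the block changed no other call of a member. Depth limited *ST3GAL6* in SW1990 most, at 10 to 36 reads.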
